A study of Harpegnathos saltator with 75 samples.

Results

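The ovaries of Harpegnathos saltator gamergates were compared between day 10 and day 3. The 10 libraries labelled gamergate and ovary at those days, 5 at day 10 and 5 at day 3, were taken by their labels out of 75 libraries in the series. The series holds 15 groups of 5 libraries of polyadenylated RNA, from the brain, the fat body and the ovary, at day 0 in ants labelled worker and at day 3 and day 10 in prospective gamergates and prospective workers. The groups used are therefore day 10 gamergate ovary, day 3 gamergate ovary, day 10 worker ovary, day 3 worker ovary and day 0 ovary, with the gamergate brain and fat body at day 10 and day 3 set beside them. All ants are of 1 species, and the labels give no strain, genotype, age or agent, nor the event from which days are counted. Whether libraries of 1 group came from different ants is not stated in the labels, and the p-values therefore describe the spread between libraries, which may be technical.

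In Harpegnathos, a worker of a colony that has lost its reproductives can become a gamergate, a worker that mates and lays eggs, and her ovaries become active while those of other workers stay mostly inactive. An insect ovary is made of tubes in which germ cells divide and nurse cells load the growing oocyte with RNA and protein. A layer of follicle cells around the oocyte makes the eggshell at the end. A growing follicle thus passes through stages in which different genes are transcribed, and whole ovaries hold follicles of several stages at once. In whole-tissue RNA, fewer cells of a kind and less RNA per cell cannot be told apart.

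Reads assigned to genes ranged between 1133870 and 1336607 per library in the day 10 gamergate ovaries and between 939390 and 1867798 in the day 3 gamergate ovaries, and between 488892 and 4677916 over the 75 libraries. In the 10 ovaries, 29.7% to 42.6% of the reads fell in no gene model and 4.27% to 8.89% matched several places. None of the 45 pairs of the 10 libraries held identical counts. The deposited table names its 20659 gene models by identifier only, and none of these matched the reference table of names, so no gene below carries a name or a role. Day and sequencing run went together in the gamergate ovaries. All day 10 libraries were on lane 2 of 1 flow cell, all day 3 libraries were on lane 2 of another, and the effects of day and of flow cell cannot be told apart from these 10 libraries.

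One library in each group stood apart. The correlation across genes of log2(CPM + 1) (CPM, reads per 1000000 assigned reads after scaling) averaged 0.919 to 0.926 between each of day 10 libraries 1 to 4 and the rest of their own group, and 0.869 to 0.879 with the day 3 group. Day 10 library 5 had 0.813 with its own group and 0.899 with the day 3 group. Day 3 library 1 had 0.886 with its own group and 0.913 with the day 10 group, whereas day 3 libraries 2 to 5 had 0.922 to 0.949 with their own. Each of these 2 libraries was thus closer, on this measure, to the other day than to its own, which goes against their labels. The labels were used as given, and whether the 2 were exchanged was not tested.

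The same 2 libraries crossed over on the first principal component of the 10 gamergate ovaries, which held 56.9% of the variance. Day 10 libraries 1 to 5 lay at 47.2, 45.2, 44.8, 40.1 and -50.7, and day 3 libraries 1 to 5 at 27.6, -15.5, -34.1, -49.6 and -55.1. Day 10 libraries 1 to 4 lay close together, and the day 3 libraries were spread along almost the whole axis. Over all 25 ovary libraries, the first component held 44.8% and the second 14.6% of the variance. Day 10 gamergate libraries 1 to 4 lay at 62.3 to 72.5 on the first and library 5 at -22.0, beside the day 3 gamergate libraries at 54.5, 23.2, 1.53, -19.1 and -16.8. The day 10 worker ovaries lay between -61.0 and -20.2, the day 3 worker ovaries between -24.8 and -12.9 except library 4 at 54.7, and the day 0 ovaries between -29.2 and 10.2. At the high end were 4 day 10 gamergate ovaries, 1 day 3 gamergate ovary and 1 day 3 worker ovary.

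**Figure D1:**
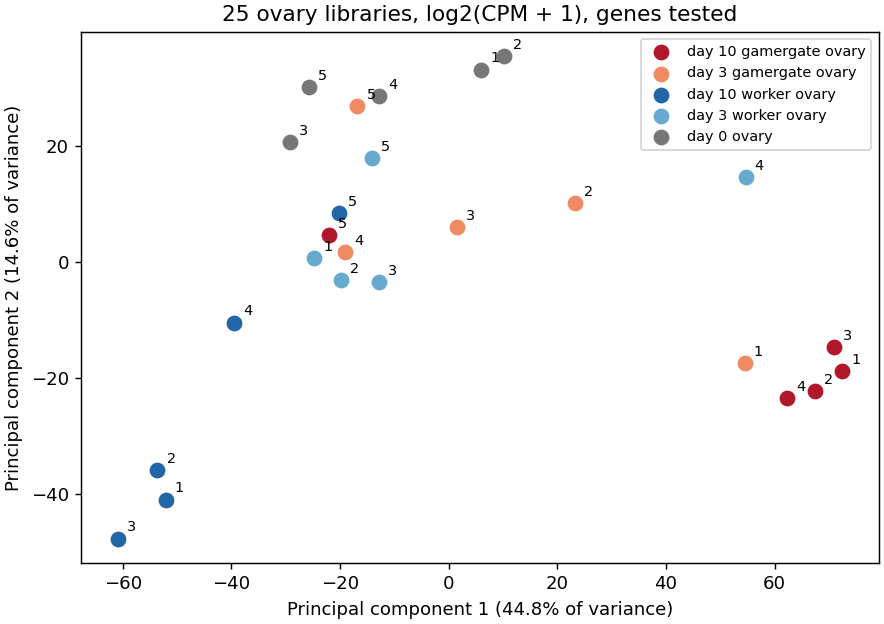
First and second principal components (44.8% and 14.6% of the variance) of log2(CPM + 1) in the 25 ovary libraries, 1 point per library, coloured by group and numbered by library. Day 10 gamergate libraries 1 to 4 lie at 62.3 to 72.5 on the first component, library 5 lies at -22.0 among day 3 libraries, and day 3 gamergate library 1 lies at 54.5 beside the day 10 gamergates.

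The library that stood apart at day 10 also differed in read assignment. Reads not assigned to a gene were 39.5%, 39.6%, 40.4%, 40.0% and 48.3% in day 10 libraries 1 to 5, and 39.7%, 42.0%, 41.6%, 42.2% and 46.5% in day 3 libraries 1 to 5. Day 10 library 5 was the highest of the 10, and day 3 library 1 was the lowest of its group. In the other tissues, the gamergate libraries numbered 5 at day 10 had the lowest mean correlation with their own group as well, 0.796 in brain, where the others had 0.899 to 0.922, and 0.891 in fat body, where the others had 0.912 to 0.918. The labels do not say whether number 5 marks the same ant in the 3 tissues, and what these libraries share was not tested.

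The spread within each group was smaller without its discordant library. The common biological coefficient of variation was 0.300 over the 5 day 10 gamergate ovaries and 0.154 without library 5, and 0.285 over the 5 day 3 gamergate ovaries and 0.203 without library 1. It was 0.249 in day 10 worker ovaries, 0.344 in day 3 worker ovaries and 0.227 in day 0 ovaries. Day 10 library 5 gave the lowest or the highest value of its group for 70.7% of the genes, against 28.2% to 37.1% for the other day 10 libraries. At day 3 this was so for 53.2% of the genes in library 1 and 57.5% in library 5, against 27.3% to 31.7% in libraries 2 to 4. Among 431 genes whose day 10 libraries spanned at least 8-fold, library 5 alone lay far below the others in 198 and far above them in 88, and each other day 10 library did so, in either direction, in 3 to 13. At day 3, 276 genes spanned as much, and library 1 alone lay far above the others in 98 and far below in 15. Each other day 3 library did so, in either direction, in 0 to 14 genes.

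With all 10 libraries, a small share of the genes differed between the days. Of 9150 genes tested with edgeR's quasi-likelihood test, 381 (4.16%) passed an adjusted p of 0.05 (Benjamini-Hochberg), 217 higher (2.37%) and 164 lower (1.79%) at day 10. An unadjusted p below 0.05 was reached by 2166 genes (23.7%). The genes that rose did so by more than those that fell. The median log2 fold change (day 10 over day 3) was 1.19 over the 217 higher genes and -0.75 over the 164 lower genes, against 0.01 over all genes tested, and 127 higher genes but 53 lower genes changed by more than 2-fold. In 193 of the 381 called genes, 99 higher and 94 lower, the 5 day 10 values did not overlap the 5 day 3 values. Over all 9150 genes tested this was so in 539 (5.89%), and the 193 among them were 2.11% of the genes tested. The call and the lack of overlap rest on the same values. A further 523 genes differed by more than 2-fold without passing the test, of 703 (7.68%) past that size.

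This count changed with the 2 libraries that stood apart. Without day 10 library 5, 1316 of 9299 genes (14.2%) were called, 678 higher and 638 lower. Without day 3 library 1, 945 of 9319 (10.1%) were called, 570 higher and 375 lower. Without both, a choice made after the data were seen that widens the difference by construction, 1885 of 9309 (20.2%) were called, 1007 higher and 878 lower. Leaving out any one of the other 8 libraries gave fewer calls, 67 to 280. The 381 genes were nearly all among those called without the discordant libraries, in the same direction: 379 without day 10 library 5, 379 without day 3 library 1 and 377 without both. Leaving out a library that lies with the other day widens the difference, so this overlap is no measure of stability. How many of the 381 stayed called without each of the other 8 libraries was not counted. The direction split also moved with the scaling of the libraries: upper-quartile scaling gave 207 higher and 260 lower genes (44.3% higher), against 217 and 164 with TMM, the trimmed mean of M values, and total reads without a scaling factor gave 179 higher and 757 lower (19.1% higher) while shifting the median of all genes to -0.14.

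**Figure D2:**
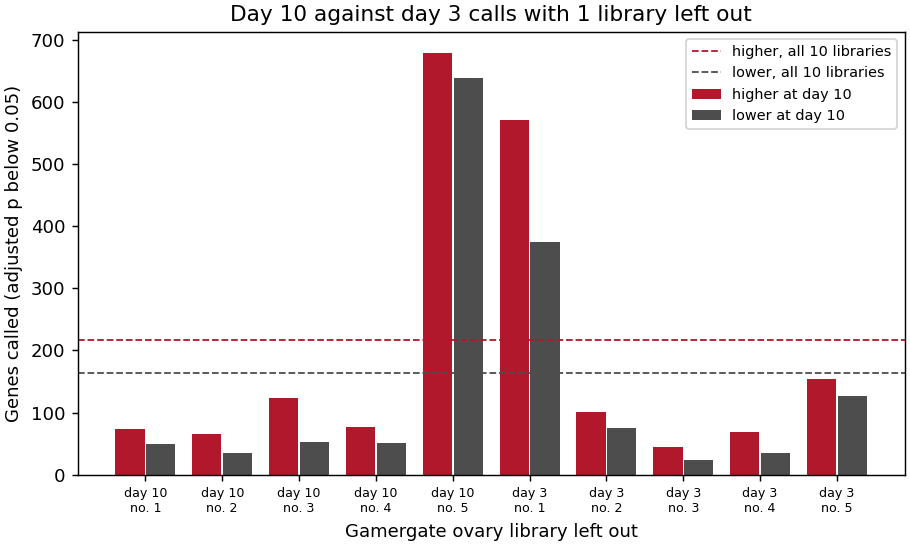
Number of genes called higher (red) and lower (grey) at day 10 than at day 3 in gamergate ovaries (y axis, genes with an adjusted p below 0.05) when the library on the x axis was left out; the dashed lines are the counts with all 10 libraries, 217 and 164. Leaving out day 10 library 5 gave 678 and 638 genes and leaving out day 3 library 1 gave 570 and 375, whereas each of the other 8 pairs of bars sums to between 67 and 280.

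The calls were spread over the whole range of expression, and their direction changed with it. Split into 5 equal classes of 1830 genes by mean CPM over the 25 ovary libraries, 3.66% of the class between 2.43 and 16.5 CPM, 4.04%, 3.55% and 4.21% of the next classes and 5.36% of the class above 146 CPM were called. In the lowest class 42 genes were higher and 25 lower at day 10, and the next 3 classes had 53 and 21, 43 and 22, and 50 and 27. In the most abundant class only 29 were higher and 69 were lower. Genes that rose thus numbered 42 to 53 in each lower class and 29 in the most abundant one, and genes that fell were most frequent among the abundant ones. These counts use TMM scaling, and how they move with other scalings was not counted. The median size of a called change, in log2 and whatever its sign, was 1.98 in the lowest class and 0.61 in the highest.

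**Figure D3:**
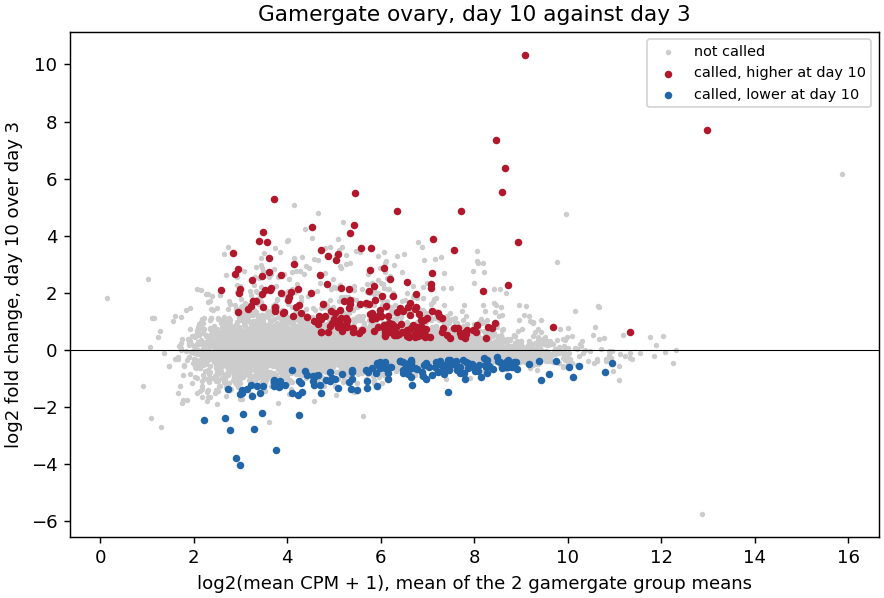
Log2 fold change, day 10 over day 3 (y axis), against log2(mean CPM + 1) (x axis) for each of 9150 genes tested in gamergate ovaries; genes called higher are red, called lower blue and not called grey. Among called genes whose groups do not overlap, with at least 10 CPM in the higher group, the largest log2 fold changes are 10.33 and -4.04. The 164 genes called lower include most called genes at high abundance.

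Few genes were on at one day and off at the other. There were 1038 genes with reads at day 10 and 0 reads in all 5 day 3 libraries, but they shared 1931 reads, 1 of them averaged at least 10 CPM, and the only one abundant enough to be tested was not called. In the other direction, 1498 genes had reads at day 3 and 0 in all 5 day 10 libraries, with 2467 reads among them, at most 17 for a gene, and none was tested. A further 4459 gene models had 0 reads in all 10 libraries.

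A handful of genes took very large shares of the reads, in some of the ovaries only. HSALG004475.2, the gene with the most reads at day 10, held 17.6%, 15.3%, 0.00209%, 14.2% and 0.00296% of all assigned reads in day 10 libraries 1 to 5. In day 3 libraries 1 to 5 its level was 8198, 1.60, 5.38, 5.40 and 27.7 CPM, and the first of these was 0.701% of the reads. In day 10 ovaries 1, 2 and 4, over 10% of the reads thus came from 1 gene, while day 10 libraries 3 and 5 had 22.2 and 27.6 CPM, within the range of the day 3 group. With this split the log2 fold change of 6.16 ± 2.17 (SE) did not pass the test (edgeR quasi-likelihood, adjusted p = 0.0951). It was 13.48 without day 3 library 1 (adjusted p = 0.00481) and 6.49 without day 10 library 5 (adjusted p = 0.0409), removals that widen the difference by construction. DESeq2 called it with all libraries (adjusted p = 0.00376). In the day 10 worker ovaries it was between 25.5 and 52.3 CPM, in the day 3 worker ovaries between 3.84 and 20.6 CPM, and in the day 0 ovaries it averaged 18.8 ± 23.0 CPM (SD, n = 5).

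HSALG004473.2, the gene with the most reads at day 3, had them almost all in 1 library. Its level was 336, 256, 383, 376 and 1.42 CPM in day 10 libraries 1 to 5, and 73367, 0, 0, 0 and 0 CPM in day 3 libraries 1 to 5. The single day 3 library held 6.27% of its reads in this gene, and the other 4 had no read of it. Day 10 libraries 1 to 4 had similar levels, and library 5 was far below them. With all libraries the log2 fold change was -5.76 ± 2.20 (SE) and was not called (edgeR quasi-likelihood, adjusted p = 0.120). Without day 3 library 1 its sign reversed, to 11.94 (adjusted p = 0.00379), a fitted value against 4 libraries at 0 reads that is no measure of size.

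HSALG023381.1, chosen after its values were seen, followed a similar but not identical split. It had 1455, 707, 17563, 54.0 and 2.83 CPM in day 10 libraries 1 to 5, and 14774, 7.20, 8.07, 0.540 and 0.522 CPM in day 3 libraries 1 to 5. Its highest day 10 value was in library 3, the one of libraries 1 to 4 in which HSALG004475.2 was low, and its highest day 3 value was in library 1. The groups overlapped, and the change was not called (log2 fold change 0.42, edgeR quasi-likelihood adjusted p = 0.938). The change was called with limma voom (6.91, adjusted p = 0.0340) and without both discordant libraries (10.30, edgeR adjusted p = 0.0281). Leaving these libraries out, a choice made after the data were seen, widens the difference by construction. The gene also reached 2063 CPM in day 3 worker library 4, the worker ovary that lay with the gamergates on the first principal component. The other 4 day 3 worker ovaries had at most 0.543 CPM.

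In all, 5 genes reached 1% of the reads in any gamergate ovary, 2 each in day 10 libraries 1, 2 and 4, 1 in day 10 library 3, none in day 10 library 5, 3 in day 3 library 1 and none in day 3 libraries 2 to 5. Summed, they held 19.5%, 17.5%, 2.21%, 16.7% and 0.00561% of the reads in day 10 libraries 1 to 5, and 9.58%, 0.00120%, 0.00444%, 0.00491% and 0.00317% in day 3 libraries 1 to 5. Within each group some libraries thus held a large share of their reads in these genes and others nearly none. The share of reads in the 10 most abundant genes of a library was 22.2%, 20.1%, 6.19%, 19.4% and 3.21% at day 10, and 13.0%, 4.28%, 4.07%, 3.83% and 3.35% at day 3. It averaged 14.2% ± 8.81 at day 10 and 5.71% ± 4.11 at day 3 (SD, n = 5 each), a difference within the spread of the libraries (two-sided exact permutation test, p = 0.0873, 0.146 adjusted over 5 measures). Without both discordant libraries the difference was 13.1 percentage points (exact p = 0.0286, the smallest that 4 against 4 libraries allow). They were left out after the data were seen, which widens the difference by construction, so no conclusion is drawn from this p.

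No difference in the number of genes detected passed the test. At an equal depth of 700000 reads, 10814, 10884, 11004, 10963 and 12014 genes had a read in day 10 libraries 1 to 5, and 11038, 11048, 11113, 11355 and 11383 in day 3 libraries 1 to 5 (difference of means -51.6, two-sided exact permutation test, p = 0.873, 0.873 adjusted). Day 10 libraries 1 to 4 all lay below the lowest day 3 library, and library 5 lay above the highest. Without both discordant libraries, a choice made after the data were seen, the difference was -308.5 genes. Its exact p of 0.0286 is the smallest that 4 against 4 libraries allow. It follows from leaving out library 5, and no conclusion is drawn from it.

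Of the named genes that passed the test, HSALG011967.1 had the largest fold change among those that rose. It had 8.19, 2497, 1152, 1775 and 2.12 CPM in day 10 libraries 1 to 5, and 0, 0, 0, 1.08 and 2.09 CPM in day 3 libraries 1 to 5. The groups did not overlap in CPM, as the choice of the gene required, but only narrowly. Day 10 library 5 (3 reads, 2.12 CPM) lay level with day 3 library 5 (4 reads, 2.09 CPM), and their read counts overlapped. Day 10 library 1 was within 10 CPM of the day 3 group as well, and the difference was carried by day 10 libraries 2, 3 and 4. The log2 fold change was 10.33 ± 2.14 (SE; edgeR quasi-likelihood, adjusted p = 0.0148). Pooled, 5631 reads at day 10 stood against 6 at day 3, a ratio of 1282 with an exact 95% interval of 588 to 3494 that covers counting error only. Leaving out day 3 library 3 ended the call (adjusted p = 0.0522).

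HSALG002151.2 had the next largest difference in mean CPM, after HSALG011967.1, among the genes called higher whose groups did not overlap. It had 3345, 3602, 2821, 3223 and 2556 CPM in day 10 libraries 1 to 5, and 2342, 1805, 2329, 2096 and 1698 CPM in day 3 libraries 1 to 5. Every day 10 library was above every day 3 library, as the choice of the gene required, and library 5 was the lowest at day 10. The means were 3109 ± 419 CPM at day 10 and 2054 ± 295 CPM at day 3 (SD, n = 5 each), with 1525 ± 203 CPM at day 0. The log2 fold change was 0.60 ± 0.13 (SE; edgeR quasi-likelihood, adjusted p = 0.0177). The call was lost without day 10 library 1 (adjusted p = 0.0511) or library 2 (adjusted p = 0.0600).

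HSALG026927.1 changed by the largest fold among the genes called lower whose groups did not overlap and whose day 3 mean was at least 10 CPM. It had 1.02, 0, 1.59, 0.947 and 0 CPM in day 10 libraries 1 to 5, and 21.2, 9.59, 16.1, 12.4 and 6.26 CPM in day 3 libraries 1 to 5. It had at most 1.59 CPM at day 10, in library 5 too, and at least 6.26 CPM in every day 3 library. The choice of the gene required that the groups did not overlap. The log2 fold change was -4.04 ± 0.68 (SE; edgeR quasi-likelihood, adjusted p = 0.00613), from 4 reads at day 10 against 94 at day 3, and the level at day 3 was 17.2 times that at day 10 (exact 95% interval 6.50 to 64.5, counting error only). It stayed called whichever of the 10 libraries was left out.

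HSALG011577.2 had the largest difference in mean CPM among the genes called lower whose groups did not overlap. It had 1284, 1334, 1083, 1540 and 1233 CPM in day 10 libraries 1 to 5, and 1833, 2431, 2692, 2467 and 1838 CPM in day 3 libraries 1 to 5. As the choice of the gene required, the groups did not overlap, so day 10 library 5 and day 3 library 1 each lay on the side of their own group. The means were 1295 ± 166 CPM at day 10 and 2252 ± 393 CPM at day 3 (SD, n = 5 each), and the log2 fold change was -0.80 ± 0.19 (SE; edgeR quasi-likelihood, adjusted p = 0.0199). Leaving out any one of day 10 libraries 1, 2 and 3 and day 3 libraries 3 and 4 ended the call (adjusted p = 0.0509 to 0.0699).

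**Figure D4:**
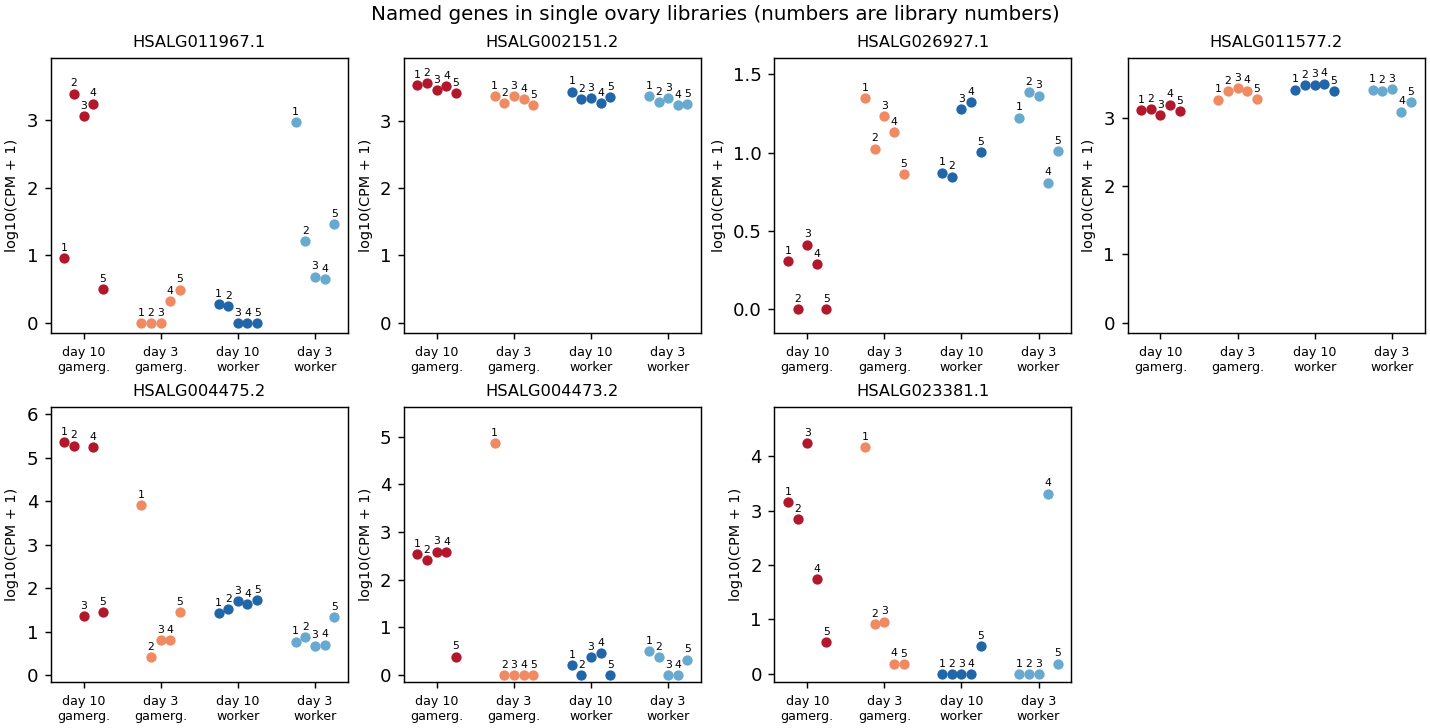
Levels of 7 genes as log10(CPM + 1) (y axis, its own range in each panel) in each gamergate and worker ovary library at day 10 and day 3, 1 point per library with its number. HSALG011967.1, HSALG004475.2 and HSALG023381.1 are high in only some of the day 10 gamergate libraries. HSALG004473.2 is highest in day 3 gamergate library 1 at 73367 CPM. HSALG002151.2, HSALG026927.1 and HSALG011577.2 separate the gamergate groups without overlap, as their choice required.

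Genes were next grouped by the tissue in which they were enriched at day 0, since no marker could be looked up by name. Of 165 ovary-enriched genes, all tested, 5 were higher and 5 lower at day 10 than at day 3 (6.06%, against 4.16% of all genes), with a median log2 fold change of 0.06. Without day 10 library 5 19 genes rose and 13 fell (19.4%, against 14.2% of all genes; median 0.18), and without both discordant libraries 30 rose and 19 fell (29.7%, against 20.2%; median 0.27). The group held 4.57% ± 0.641 of the reads at day 10 and 4.88% ± 0.530 at day 3 (SD, n = 5 each; two-sided exact permutation test, p = 0.437, 0.546 adjusted). The genes that set the ovary apart from the other tissues at day 0 thus gave calls in both directions.

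Of 373 fat-body-enriched genes, 271 were tested, of which 18 were higher and 1 lower at day 10 (7.01% called, against 4.16% of all genes). Their median log2 fold change was 0.31, against 0.01 over all genes. The fat body is the insect storage and secretory tissue, which lies against the ovary. Of the 373, 4 had 0 reads in all 10 ovaries, 59 averaged below 1 CPM and 208 averaged at least 10 CPM, so most genes of the list had reads in the ovary libraries. The list held 2.01%, 2.32%, 2.43%, 2.23% and 2.23% of the reads in day 10 libraries 1 to 5, and 2.06%, 1.82%, 1.85%, 2.03% and 1.69% in day 3 libraries 1 to 5. Day 10 libraries 2 to 5 were above all day 3 libraries, and library 1 fell inside their range. The means were 2.24% ± 0.157 and 1.89% ± 0.153 (SD, n = 5 each; two-sided exact permutation test, p = 0.0238, 0.0595 adjusted over 5 measures). The 19 called genes held 9.29% of the list's reads at day 10 and 3.69% at day 3, a rise that follows from 18 of them having been called higher. Without day 10 library 5 the list gave 53 higher and 8 lower genes (21.8% called, against 14.2% of all genes), with a median of 0.22, and without both discordant libraries 71 and 11 (29.1%, against 20.2%), with a median of 0.22. The part of fat body tissue in the calls was not tested.

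Of 715 brain-enriched genes, 34 had 0 reads in all 10 ovaries and 180 were tested. At day 10, 3 of these were higher and 5 lower (4.44% called, close to the 4.16% of all genes), and their median log2 fold change was 0.03, against 0.01 over all genes. Their share of reads was 0.409% ± 0.0539 at day 10 and 0.334% ± 0.0245 at day 3 (SD, n = 5 each; two-sided exact permutation test, p = 0.0159, 0.0595 adjusted). The highest value, 0.498%, was in day 10 library 5. Without library 5 the tested genes of the list gave 10 higher and 13 lower genes (11.4% called, against 14.2% of all genes), with a median of -0.37, and without day 3 library 1 the list's median was -0.02, so its sign was not stable.

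The gamergate ovary of each day was also set against day 0. Between day 3 gamergate and day 0 ovaries 1692 genes were called (18.5%), 888 higher (9.7%) and 804 lower (8.79%), and between day 10 gamergate and day 0 ovaries 2317 (25.3%), 1240 higher (13.6%) and 1077 lower (11.8%). Both comparisons share the day 0 libraries. With only the day 0 libraries of the same flow cell, 649 genes were called at day 3 and 882 at day 10, and without day 3 library 1 the day 3 count was 1199. Among the 217 genes higher at day 10 than at day 3, the mean at day 0 lay below both days in 85, above both in 10 and between them in 122. Over all 9150 genes tested it lay below both in 3181 and above both in 3697. Among the 164 lower genes it lay below both days in 15, above both in 33 and between them in 116. Of the 217, 154 were called higher at day 10 than at day 0 and none lower, while 7 were called higher and 31 lower at day 3. Of the 164, 45 were called higher and 2 lower at day 3, and 1 higher and 68 lower at day 10. These sets were chosen for a wide gap between the days, which by itself makes a day 0 level between them more frequent.

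The ovaries of workers changed differently over the same days. Between day 10 and day 3 worker ovaries, 1806 genes were called (19.7%), 905 higher (9.89%) and 901 lower (9.85%). The gamergate and worker calls shared 73 genes, 19.2% of the gamergate calls and 4.04% of the worker calls, of which 32 went the same way and 41 opposite ways. These shares were close to those over all genes tested, of which 19.7% were called in workers and 4.16% in gamergates. Across all genes tested the 2 sets of fold changes, which share no library, had a Pearson correlation of -0.32, a description over genes that are not independent. The median worker log2 fold change was -0.12 over the 217 genes that rose in gamergates and 0.10 over the 164 that fell, against -0.04 over all genes.

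The difference between the castes was itself tested as an interaction. On each flow cell the gamergate ovaries were on lane 2 and the worker ovaries on lane 1, so each of these 4 groups had a lane of its own, and the caste difference and the lane within a flow cell cannot be told apart. The gamergate change minus the worker change was called in 1828 genes (20%), positive in 1042 (11.4%) and negative in 786 (8.59%). It was called in 136 of the 217 genes that rose in gamergate ovaries, positive in each, and in 107 of the 164 that fell, negative in each; the gamergate calls enter both sides of this count. A further 896 were genes called in workers and not in gamergates, and 689 were called in neither. In HSALG011967.1 the difference was 18.72 on the log2 scale (edgeR quasi-likelihood, adjusted p = 0.00420), and the gene fell in worker ovaries (log2 fold change -8.39, adjusted p = 0.0179), where it had at most 0.880 CPM at day 10 and 948, 15.4, 3.84, 3.40 and 28.2 CPM in day 3 libraries 1 to 5. Without day 3 worker library 1 the worker change was no longer called (adjusted p = 0.137) and the difference was 14.84 (adjusted p = 0.00348). In HSALG026927.1 the difference was -3.64 (adjusted p = 0.00841) and in HSALG011577.2 it was -1.23 (adjusted p = 0.00588), and in workers neither was called (log2 fold changes -0.40 and 0.43). HSALG002151.2 rose in gamergates with no difference called between castes (0.43, adjusted p = 0.0992).

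**Figure D5:**
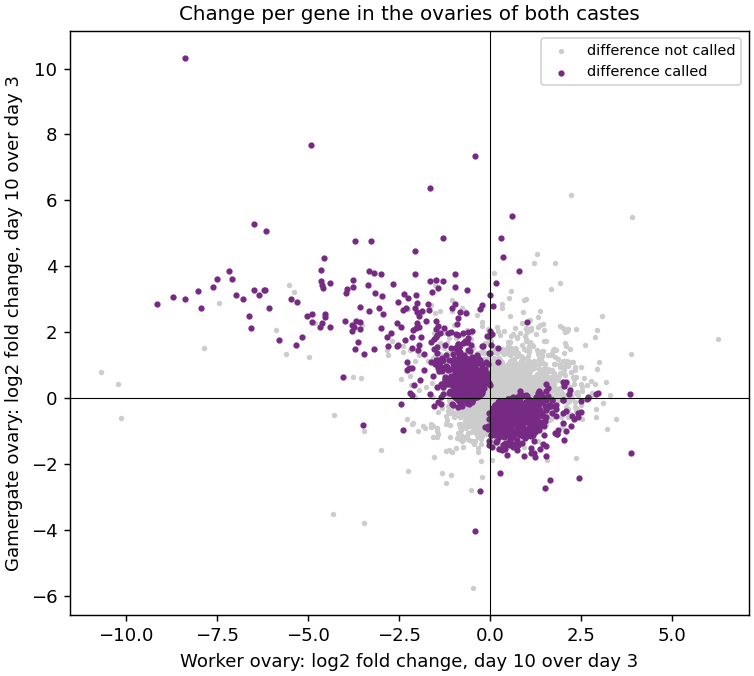
Log2 fold change between day 10 and day 3 in gamergate ovaries (y axis) and in worker ovaries (x axis), 1 point per gene for the 9150 genes tested, purple where the difference between castes was called (1828 genes) and grey elsewhere. The purple genes were chosen for a difference between the castes, so their place away from the line of equal change follows from that choice. The correlation over all points is -0.32.

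Counts for the tissue-enriched genes in worker ovaries, where 19.7% of all genes were called between the days, stand beside the caste difference. Of the fat-body-enriched genes tested, 84 rose and 6 fell by day 10 in workers (33.2% called, median 0.50), and of the brain-enriched genes 49 rose and 5 fell (30% called, median 0.69). Of the ovary-enriched genes 8 rose and 25 fell (20% called, close to the share over all genes; median -0.48, against -0.04 over all genes). Fat-body-enriched genes held 4.40%, 4.13%, 3.41%, 2.06% and 2.41% of the reads in day 10 worker libraries 1 to 5, and 1.88% to 2.66% in day 3 worker libraries. The day 10 worker libraries 1 to 3 were thus above every other ovary, and the part of other tissue in the caste difference was not tested. The interaction was called positive in 29 and negative in 15 ovary-enriched genes (26.7% called, against 20% of all genes), with a median difference of 0.39 against 0.04 over all genes. It was positive in 24 and negative in 22 fat-body-enriched genes (17% called), with a median difference of -0.21. One day 3 worker library bore on it too: without day 3 worker library 4, 898 differences were called, and without day 10 gamergate library 5, 2774.

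Calls between the days were few in the other tissues of gamergates, for the genes called in the ovary as for all genes. In the brain, 4 of 9886 genes (0.0405%) were called between day 10 and day 3, 2 higher (0.0202%) and 2 lower (0.0202%), and in the fat body 129 of 7941 (1.62%), 49 higher (0.617%) and 80 lower (1.01%). Of the 217 genes higher at day 10 in the ovary, 177 were tested in the brain, where none was called by edgeR's quasi-likelihood test or DESeq2 and 1 by limma voom, 13 had an unadjusted p below 0.05 in edgeR, and the median log2 fold change was 0.08. Of the same genes, 161 were tested in the fat body, where 2 were higher and 1 lower and the median was 0.00. Of the 164 lower genes, none of 151 was called in the brain by edgeR or DESeq2 and 1 by voom, with 3 at an unadjusted p below 0.05 in edgeR. In the fat body 1 of 126 was called, higher. Of all 7524 genes tested in both ovary and fat body, 44 were called higher and 69 lower in the fat body. The difference between tissues was not tested gene by gene.

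Flow cell could be set against day only through the day 0 ovaries, of which 2 were sequenced with the day 10 and 3 with the day 3 libraries. Between these 2 and 3 day 0 libraries no gene of 9150 was called by edgeR's quasi-likelihood test and 211 had an unadjusted p below 0.05, and the median difference was -0.09 over the 217 genes and 0.09 over the 164, opposite in sign to the day 10 against day 3 change. With flow cell as a term in the fit, 2 genes were called and 1183 (12.9%) had an unadjusted p below 0.05. All of the 381 genes kept their sign, with medians of 1.26 and -0.83, and the median standard error over them was 0.388, against 0.226 without the term. The term rests on the same day 0 libraries, and the 381 genes were chosen for their change between the days. The kept signs therefore do not separate day from flow cell.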

How the data were processed

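Polyadenylated RNA was extracted with Trizol, treated with DNase and made into libraries with the NEBNext Ultra II kit, per the labels' protocols. The authors deposited raw read counts per gene, whole numbers without normalization. Trimmomatic, STAR 2.5.3a and HTSeq are listed in the submitters' processing notes; the genome build, the annotation and the use of strand in counting were not given in the sources used here, so overlapping and antisense genes may share reads. The 5 rows of reads without a gene, 39.5% to 48.3% of the reads in the 10 libraries, were left out, and every column was matched to a sample by its label (0 unmatched).

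The 25 ovary libraries were fitted together in R 4.3.3 with edgeR 4.0.16 (genes kept by filterByExpr with a minimum count of 10 and a total of 15; TMM scaling; glmQLFit and glmQLFTest). Genes were called at a Benjamini-Hochberg adjusted p of 0.05 over all genes tested, and standard errors are the log2 fold change divided by the root of F. CPM use TMM-scaled library sizes, are not per length and are not compared between genes; shares of reads use all assigned reads. Brain and fat body were fitted in the same way. Alternatives were DESeq2 1.42.0, limma 3.58.1 (voom with sample weights), other scalings, no filter, only the groups compared, replicate number as a block, flow cell as a term, and each library left out.

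For each of 5 per-library measures, a two-sided exact permutation test set 5 libraries against 5, with adjustment over the 5; the smallest p possible is 0.00794. Detected genes were counted after thinning to 700000 reads. Tissue-enriched genes had at least 10 CPM and a log2 fold change above 3 over each other tissue at day 0. The named genes are in each direction the called gene with the largest fold change and the one with the largest CPM difference (the next where it is the same gene), both without overlap between the groups and with a mean of at least 10 CPM, plus the gene with the most reads at each day. Lists by gene name could not be applied. Libraries and lists were chosen with earlier results of these data known. The scripts were tested on simulated data. Intervals cover counting error only.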

Additional observations from a re-analysis of the deposited data

Results flagged for a closer look

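In groups of 5 ovary libraries, 1 library stood far from the other 4 (Dixon's ratio) in 11 of 40 groups examined. Chance gives about 1 in 20 for measures not picked by their values, which cannot be set against this count: HSALG023381.1 was chosen after its values were seen, and HSALG004475.2 and HSALG004473.2 for having the most reads. In day 3 gamergate library 1 these were HSALG004475.2 at 8198 CPM, HSALG004473.2 at 73367 CPM, HSALG023381.1 at 14774 CPM and the 10 most abundant genes at 13.0% of reads. In day 10 gamergate library 5 they were 12014 genes detected and 48.3% of reads unassigned, and in day 10 gamergate library 3 HSALG023381.1 at 17563 CPM. In workers they were HSALG011967.1 at 948 CPM in day 3 library 1, HSALG004475.2 at 20.6 CPM in day 3 library 5, and HSALG023381.1 at 2063 CPM in day 3 library 4 and 2.27 CPM in day 10 library 5.

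The day 10 against day 3 change differed between gamergate and worker ovaries, by the interaction in edgeR's quasi-likelihood test, in 1828 genes. Among the named genes, the log2 difference was 18.72 in HSALG011967.1, -3.64 in HSALG026927.1 and -1.23 in HSALG011577.2. Leaving out each of the 20 worker and gamergate libraries in turn kept these 3 differences called.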

How the results depend on the processing

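The count of 381 genes (217 higher, 164 lower) was 726 (401 and 325) with DESeq2 and 3240 (1718 and 1522) with limma voom. It was 2 (1 and 1) with flow cell as a term, 936 (757 lower) without a scaling factor and 1885 (1007 and 878) without both discordant libraries. Upper-quartile scaling gave 260 lower genes and no filter gave 143 higher genes. Leaving out 1 library gave 67 to 1316 calls, 44 to 678 higher and 23 to 638 lower.

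With the replicate number as a block, 453 genes were called, 256 higher and 197 lower. Whether the numbers pair the samples was not tested. Same-number correlations of the deviations were 0.405, 0.0917, -0.159, -0.209 and 0.635 for numbers 1 to 5. Day 10 libraries 1 and 5 alone correlated best with their own number. The best match of day 10 libraries 1 to 4 was day 3 library 1, a discordant library.

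The caste difference (1828 genes) was called in 3421 genes with voom, 1206 without the filter, 3090 without both discordant libraries and 898 to 2774 with 1 library left out. The worker count (1806) was 637 with only the groups compared, 1 with flow cell as a term and 825 to 2780 with 1 library left out. With day 0 libraries of the same flow cell, 649 genes were called at day 3 and 882 at day 10, and with 1 library left out 898 to 2329 and 1651 to 3364. The brain count (4) was 10 with DESeq2, 37 with voom, 2 with the replicate block, 1 with flow cell as a term, and 0 without the filter or with only the groups compared; with 1 library left out it was 0 to 4. The fat body count (129) was 742 without a scaling factor, 212 with DESeq2, 292 with voom, 211 with only the groups compared, 31 with flow cell as a term and 59 to 119 with 1 library left out.

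HSALG004473.2 turned to a log2 fold change of 8.46 with voom, 2.72 with the replicate block, 11.94 without day 3 library 1 and 12.25 without both discordant libraries, and ranged between -6.08 and 11.94 with 1 library left out. HSALG023381.1 ranged between -2.41 (without day 10 library 3) and 10.00 (without day 3 library 1). With flow cell as a term none of the 4 called named genes kept its call (adjusted p 0.0603 to 0.856), with log2 fold changes of 8.998 (HSALG011967.1), 0.55 (HSALG002151.2), -4.72 (HSALG026927.1) and -1.24 (HSALG011577.2). Voom lost HSALG011967.1 (9.64, adjusted p = 0.398). With only the groups compared, HSALG011967.1 and HSALG026927.1 did not enter the test.

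The share of brain-enriched genes turned to -0.0540 percentage points (exact p = 0.579) with a list cut of log2 above 2, was 0.0523 (exact p = 0.0571) without both discordant libraries and 0.0523 to 0.0856 with 1 library left out. The fat-body-enriched share was 0.401 (exact p = 0.0571) without both and 0.306 to 0.415 with 1 left out, and the ovary-enriched share -0.511 to -0.0621. The share of the 10 most abundant genes was 13.1 without both and 6.51 to 11.2 with 1 left out. The difference in detected genes was -308.5 without both, -271 to 28.9 with 1 left out, and turned positive without day 10 library 1 (28.9) or library 2 (11.4). The cause of these shifts was not tested. Groups of 5 with 1 discordant library each, and 1 flow cell per day, limit what the comparison can resolve.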
